A study of Mus musculus with 6 samples.

Results

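The 26 genes described here cover the synthesis of cholesterol and the control and movement of sterols in mouse liver. They were set as a list of gene names: 18 enzymes of the pathway and 8 genes that sense, carry, esterify or export sterol. All 26 had a named probe among the 20018 genes with one on the array, and 25 of them passed the filter on dim probes, among 13586 genes tested. RNA was taken from liver at 3 days after an operation, in male mice of the C57BL/6J strain. For PVBL the left portal vein branch had been tied off, and the untied right lobe served as the regenerating tissue; sham livers, also right lobes, come from mice operated on without that ligation. With 3 samples in either group, 6 single-colour Agilent arrays were read, and no allele or drug is named for any of them. Whether samples came from separate mice is not stated in the labels, so a p-value here reflects sample-to-sample spread that may include technical variation. All arrays lay on 1 slide, with the sham arrays in row 1 and the PVBL arrays in row 2, so row and surgery cannot be told apart.

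Cholesterol is built from acetyl-CoA through mevalonate and isoprenoid units to squalene, which is closed into a sterol ring and then trimmed step by step. SREBP-2, the product of Srebf2, is the transcription factor that drives most enzymes of the pathway. It is held in the endoplasmic reticulum by Scap and the Insig proteins when sterol is plentiful, and it is released for cleavage when sterol is scarce. The liver is a main site of this synthesis and also turns cholesterol into bile acids.

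Promoter sequence gives the context in which these genes are known to be controlled, and 4 members whose difference passed the test are printed here. Hmgcs1 is added as the 1 member, of those with a promoter entry, that matched TCACNCCAC in the window searched. That string was taken as the core of a sterol regulatory element. Other spellings of the element were not searched, so a window without a match may still hold one. Each run is the 250 bases before the annotated RefSeq start, from build GRCm38.p6, written 5′ to 3′ on the gene's own strand. Capitals mark CCAAT or its reverse complement ATTGG, the box bound by NF-Y, and in Hmgcs1 also the sterol regulatory element core. Acat2 lies at chr17:12960726-12960975 on the minus strand, Hmgcs1 at chr13:119690101-119690350 on the plus strand, Cyp51 at chr5:4104698-4104947 on the minus strand, Tm7sf2 at chr19:6067851-6068100 on the minus strand and Insig1 at chr5:28071162-28071411 on the plus strand.
Acat2: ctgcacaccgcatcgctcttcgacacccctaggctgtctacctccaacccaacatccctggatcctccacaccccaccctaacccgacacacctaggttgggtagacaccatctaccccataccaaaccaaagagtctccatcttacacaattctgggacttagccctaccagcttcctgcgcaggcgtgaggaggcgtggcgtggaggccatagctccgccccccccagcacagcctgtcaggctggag
Hmgcs1: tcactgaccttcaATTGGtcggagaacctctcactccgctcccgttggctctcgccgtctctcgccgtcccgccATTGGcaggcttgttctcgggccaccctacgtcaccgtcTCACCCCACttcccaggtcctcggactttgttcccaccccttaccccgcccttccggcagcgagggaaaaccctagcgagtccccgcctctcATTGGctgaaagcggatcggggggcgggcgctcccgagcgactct
Cyp51: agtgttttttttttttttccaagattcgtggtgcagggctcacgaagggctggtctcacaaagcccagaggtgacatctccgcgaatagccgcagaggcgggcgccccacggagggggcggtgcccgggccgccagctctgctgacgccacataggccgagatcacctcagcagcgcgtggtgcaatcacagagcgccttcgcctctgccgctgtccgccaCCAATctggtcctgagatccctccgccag
Tm7sf2: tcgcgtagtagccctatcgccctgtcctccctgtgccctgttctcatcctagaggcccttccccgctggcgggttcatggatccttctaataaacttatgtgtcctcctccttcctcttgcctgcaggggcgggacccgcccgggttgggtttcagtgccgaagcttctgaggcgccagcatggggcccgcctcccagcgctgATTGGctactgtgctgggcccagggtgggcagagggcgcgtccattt
Insig1: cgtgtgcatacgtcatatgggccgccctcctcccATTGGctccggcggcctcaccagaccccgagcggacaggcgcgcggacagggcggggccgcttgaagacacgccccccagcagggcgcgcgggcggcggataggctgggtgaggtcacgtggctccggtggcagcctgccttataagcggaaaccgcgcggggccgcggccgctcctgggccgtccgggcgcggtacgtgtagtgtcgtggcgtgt

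Of the 26 members, 21 had an entry in the RefSeq promoter table; Fdps, Fdft1, Sqle, Stard4 and Soat2 are named only. CCAAT was found on either strand in 14 of the 15 enzymes with an entry (93.3%) and in 4 of the 6 control and transport genes (66.7%), where 37.5% of all genes and 33.8% of all promoters of that length held it. Acat2 was the enzyme without a match. In Cyp51 the nearest match lay 25 bases before the start, in Tm7sf2 43 bases, in Hmgcs1 41 bases and in Insig1 212 bases. The sterol regulatory element core, searched as TCACNCCAC on both strands, matched in Hmgcs1 alone among these 21 genes, 129 bases before the start, and in 1.22% of all genes and 1.05% of all promoters. The GC box GGGCGG, bound by Sp1, was in 14 of 15 enzymes and 5 of 6 control and transport genes, against 35.4% of all genes and 32.7% of all promoters. The E-box CACGTG was in 3 of 15 enzymes and 3 of 6 control and transport genes, against 6.86% and 6.02%. The letters of these motifs differ, although matches can share bases at their ends. A match describes the letters of the window and was not tested as a site of binding.

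Each array was scaled by its signal at the 75th percentile, which was 330.6 to 407 units in PVBL and 203.5 to 314.7 in sham, lowest on sham array 3. Between 48.04% and 53.64% of probes were well above background on an array, and no spot was saturated. After scaling, arrays correlated at r of 0.9822 to 0.9917 within PVBL, 0.991 to 0.9962 within sham and 0.9476 to 0.9599 between the groups. Levels below are log2 values relative to the array's 75th percentile; they are compared between arrays for the same probe, not between genes. Differences are PVBL minus sham on the log2 scale with limma's standard error, and a gene is called when its Benjamini-Hochberg adjusted p over all genes tested is under 0.05. By that rule 4475 genes (32.9%) were called, 2053 higher (15.1%) and 2422 lower (17.8%), and the median difference over all genes was -0.10.

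In regenerating liver 6 of the 25 tested members were called (24%), beside 32.9% of all genes. That gap was not tested. Among the 18 enzymes 1 was higher, Cyp51, and 2 were lower, Acat2 and Tm7sf2; the other 15 were not called. Among the 7 tested control and transport genes, Insig1, Scap and Stard4 were lower and none was higher. The share called was 16.7% for the enzymes and 42.9% for the control and transport genes. The median difference was 0.05 over the enzymes, 10 of 18 of them above 0, and -0.26 over the control and transport genes, 2 of 7 above 0. With only 7 genes in the second group these shares describe the members and were not tested against each other. In bulk tissue, fewer cells of a type and less RNA per cell cannot be told apart.

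**Figure D1:**
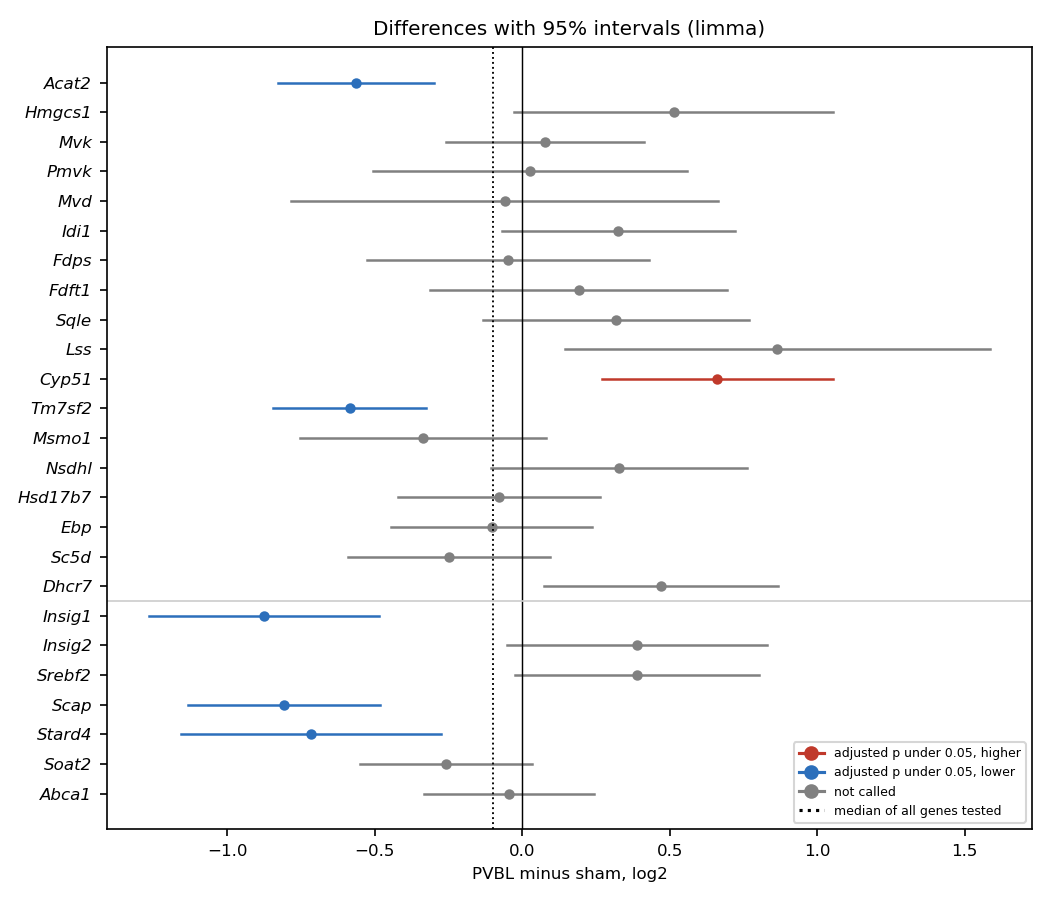
Difference between PVBL and sham for the 25 tested members, on the log2 scale, with limma's 95% intervals; enzymes stand above the grey line and control and transport genes below it. Cyp51 alone is called higher, Acat2, Tm7sf2, Insig1, Scap and Stard4 are called lower, and the dotted line marks the median of all genes tested, -0.10.

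The early enzymes, from acetyl-CoA to squalene, gave 1 call among 8 genes, a lower level of Acat2, with a median difference of 0.05. Acat2, the cytosolic thiolase that joins acetyl-CoA units, stood at 5.82, 5.82 and 5.93 on the PVBL arrays and at 6.49, 6.37 and 6.41 on the sham arrays. The groups did not overlap, and the sham values were the higher on every array. Its difference was -0.56 ± 0.11 (SE, n = 3 per group), a 1.48-fold lower level with an adjusted p of 0.0102 by limma. Without sham replicate 1 it was -0.53 with an adjusted p of 0.0522. With quantile normalization the difference was -0.37 (limma adjusted p = 0.0773), and with scaling to spike-in probes -0.13 with an SE of 0.42 (0.913). Median scaling kept the call (-0.43, 0.0299), so the call depends on which scaling was used.

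Hmgcs1, which makes HMG-CoA at the entry to the mevalonate pathway, read 7.05, 7.47 and 7.65 on the PVBL arrays and 7.04, 7.12 and 6.47 on the sham arrays. The groups overlapped, since PVBL array 1 lay between sham arrays 1 and 2, and sham array 3 was the lowest of all. Its difference of 0.51 ± 0.23 was not called (adjusted p = 0.126), and its 95% interval ran from -0.03 to 1.05. Its promoter holds the sterol regulatory element core shown above.

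Mevalonate is then phosphorylated by Mvk and Pmvk and decarboxylated by Mvd. Mvk read 4.73, 5.02 and 5.02 in PVBL and 4.88, 4.97 and 4.68 in sham, a difference of 0.08 ± 0.14 (adjusted p = 0.693). Pmvk read 5.64, 6.09 and 6.10 in PVBL and 5.96, 6.28 and 5.52 in sham, a difference of 0.02 ± 0.23 (adjusted p = 0.940). Mvd read 1.66, 1.32 and 1.89 in PVBL and 1.79, 2.23 and 1.04 in sham, a difference of -0.06 ± 0.31 (adjusted p = 0.892). In these 3 genes the groups overlapped, and the lowest sham value was on sham array 3 each time. The widest interval among the early enzymes, that of Mvd, ran from -0.78 to 0.66, which includes changes of either sign.

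Idi1, the isomerase that balances the pair of C5 isoprenoid units, read 6.03, 6.43 and 6.60 on the PVBL arrays and 6.02, 6.08 and 5.98 on the sham arrays. The sham values were tightly grouped, with an SD of 0.05, and PVBL array 1 fell among them. Its difference of 0.33 ± 0.17 was not called (adjusted p = 0.171). Fdps, which builds farnesyl diphosphate, read 7.04, 7.47 and 7.55 against 7.42, 7.68 and 7.10, a difference of -0.05 ± 0.20 (adjusted p = 0.866). Fdft1, squalene synthase, read 4.30, 4.39 and 4.50 against 4.41, 4.47 and 3.73, a difference of 0.19 ± 0.21 (adjusted p = 0.513). The groups of Fdps and Fdft1 overlapped, and sham array 3 was the lowest sham array in both.

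**Figure D2:**
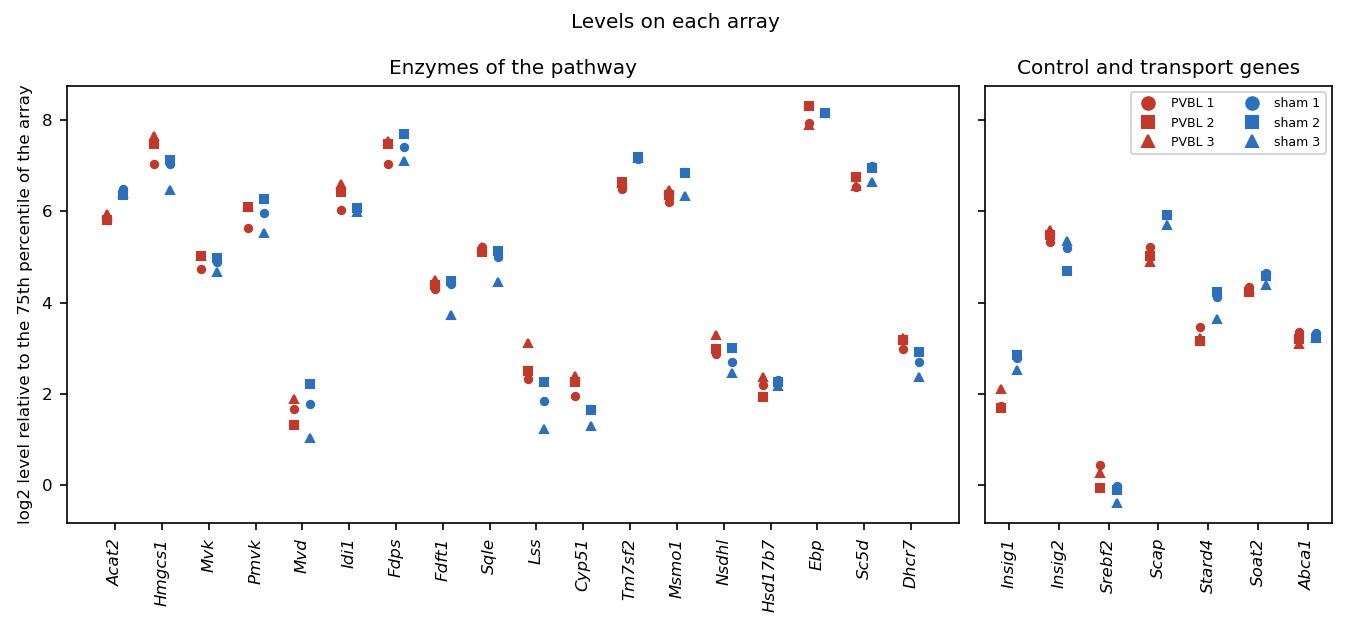
Level of each tested member on each of the 6 arrays, as log2 relative to the array's 75th percentile, with PVBL arrays in red and sham arrays in blue and the marker shape giving the replicate number. The groups of Acat2 and Tm7sf2 stand apart with sham higher, those of Lss, Cyp51 and Dhcr7 with PVBL higher, and the triangle of sham array 3 is often the lowest sham point among the enzymes.

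The late enzymes, from squalene to cholesterol, gave 1 gene called higher and 1 called lower among 10, with a median difference of 0.12. Cyp51, the lanosterol demethylase, was higher in regenerating liver. It read 1.97, 2.25 and 2.39 on the PVBL arrays and 1.68, 1.64 and 1.30 on the sham arrays, with no overlap. The difference was 0.66 ± 0.17 (SE, n = 3 per group), 1.58-fold, with an adjusted p of 0.0229 by limma. The direction was the same in all alternatives tried, and the size ranged from 0.39 to 1.09, but the call was lost in 8 of 18. Leaving out PVBL replicate 2 gave 0.64 (adjusted p = 0.0539), and leaving out sham replicate 1, 2 or 3 gave 0.73 (adjusted p = 0.0521), 0.71 (0.0541) or 0.54 (0.0678), each just above the threshold.

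Tm7sf2, a sterol reductase that acts on the product of Cyp51, was lower in regenerating liver. It read 6.50, 6.64 and 6.62 on the PVBL arrays and 7.16, 7.18 and 7.17 on the sham arrays. The sham values lay within an SD of 0.01, and every PVBL value was below them. The difference was -0.59 ± 0.11, a 1.5-fold lower level (adjusted p = 0.00852). A further probe of the gene gave -0.60 (adjusted p = 0.0108 when probes were tested separately). Leaving out any 1 array kept the call, while quantile normalization gave -0.35 (adjusted p = 0.0573) and spike-in scaling -0.15 (adjusted p = 0.896). So enzymes at neighbouring steps moved in opposite directions, Cyp51 up and Tm7sf2 down; the difference between these genes was not tested.

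Sqle, which oxidises squalene and is a known rate-controlling step, read 5.22, 5.11 and 5.23 on the PVBL arrays and 5.01, 5.14 and 4.45 on the sham arrays. Sham array 2 lay among the PVBL values, and the difference of 0.32 ± 0.19 was not called (adjusted p = 0.234). Lss, which closes squalene epoxide into lanosterol, read 2.32, 2.51 and 3.11 against 1.86, 2.26 and 1.23. Its groups did not overlap, but the gap between the lowest PVBL value and sham array 2 was small beside the spread within each group, an SD of 0.41 in PVBL and 0.52 in sham. Its difference of 0.87 ± 0.31 was the largest positive difference among the members and missed the threshold (adjusted p = 0.0671, 95% interval 0.14 to 1.59). It passed with normexp background correction (0.90, adjusted p = 0.0337), with spike-in scaling (1.30, 0.0221) and without sham replicate 2 (1.10, 0.0499).

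Demethylation at C4 is carried out by Msmo1 and Nsdhl and ends with Hsd17b7. Msmo1 read 6.20, 6.35 and 6.48 in PVBL and 6.86, 6.84 and 6.34 in sham, a difference of -0.34 ± 0.18 (adjusted p = 0.178). Its sham arrays 1 and 2 were above every PVBL array and sham array 3 was among them. Nsdhl read 2.89, 2.99 and 3.29 against 2.70, 3.02 and 2.47, a difference of 0.33 ± 0.18 (adjusted p = 0.206). Hsd17b7 read 2.20, 1.93 and 2.38 against 2.31, 2.26 and 2.18, a difference of -0.08 ± 0.15 (adjusted p = 0.699), while its further probe gave 0.21. None of these 3 genes was called, and the probes of Hsd17b7 differed in sign.

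The last steps are the work of Ebp, the sterol isomerase, Sc5d, the lathosterol desaturase, and Dhcr7, the reductase that yields cholesterol. Ebp read 7.94, 8.31 and 7.90 in PVBL and 8.14, 8.16 and 8.15 in sham, a difference of -0.10 ± 0.14 (adjusted p = 0.604). Sc5d read 6.53, 6.75 and 6.55 against 7.0, 6.95 and 6.63, a difference of -0.25 ± 0.15 (adjusted p = 0.223). Dhcr7 read 2.98, 3.17 and 3.24 against 2.69, 2.91 and 2.37, with every PVBL value above every sham value. Its difference of 0.47 ± 0.17 was not called (adjusted p = 0.0697, 95% interval 0.07 to 0.87), and it passed with trended and robust moderation (adjusted p = 0.0478). Counting arrays that did not overlap, 3 enzymes stood higher in PVBL (Lss, Cyp51 and Dhcr7) and 2 lower (Acat2 and Tm7sf2). Among all genes 22.3% stood higher and 29.1% lower by that count.

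The genes that sense sterol showed a split between the Insig pair. Insig1 and Insig2 both encode membrane proteins that retain the Scap and SREBP complex, and Insig1 is itself a known target of SREBP. Insig1 read 1.73, 1.69 and 2.11 on the PVBL arrays and 2.79, 2.86 and 2.52 on the sham arrays. All PVBL values lay below all sham values, and the difference was -0.88 ± 0.17 (SE, n = 3 per group), a 1.84-fold lower level with an adjusted p of 0.0086 by limma. The call held without any 1 array, with differences from -1.01 to -0.80, and was lost with spike-in scaling (-0.44, adjusted p = 0.606).

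Insig2 read 5.34, 5.48 and 5.59 on the PVBL arrays and 5.20, 4.71 and 5.34 on the sham arrays. Sham array 3 lay level with the lowest PVBL value, and the difference of 0.39 ± 0.19 was not called (adjusted p = 0.149). Its further probe, for another transcript, gave 0.48. Within each array, Insig1 minus Insig2 was -3.61, -3.79 and -3.48 in PVBL and -2.41, -1.85 and -2.82 in sham, a quantity in which the scaling of the array cancels. The groups did not overlap, and the difference between them was -1.26. An exact two-sided permutation test gave p = 0.1, the smallest that this test allows with 3 against 3 arrays, so it could not pass 0.05 whatever the size of the difference.

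Scap, the escort that carries SREBP to the Golgi, was lower in regenerating liver. It read 5.21, 5.01 and 4.88 on the PVBL arrays and 5.91, 5.92 and 5.70 on the sham arrays. Every sham value was above every PVBL value. The difference was -0.81 ± 0.14, a 1.75-fold lower level with an adjusted p of 0.00594, the lowest among the members. Among the alternatives it was lost with spike-in scaling alone (-0.38, adjusted p = 0.682). Srebf2 itself read 0.45, -0.05 and 0.27 against -0.01, -0.09 and -0.39. The lowest PVBL value lay among the sham values, and the difference of 0.39 ± 0.18 was not called (adjusted p = 0.129). Its further, dimmer probe gave 0.08.

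Of the genes that carry and store sterol, Stard4 was called and was lower in regenerating liver. Stard4, a soluble carrier that moves cholesterol between membranes, read 3.46, 3.16 and 3.22 on the PVBL arrays and 4.12, 4.24 and 3.63 on the sham arrays. The groups did not overlap, with the smallest gap between PVBL array 1 and sham array 3. The difference was -0.72 ± 0.19, a 1.64-fold lower level (adjusted p = 0.0261), and a further probe gave -0.52 (adjusted p = 0.0226 when probes were tested separately). The call was lost in 7 of 19 alternatives, always with the same sign. These include leaving out PVBL replicate 2 (-0.66, adjusted p = 0.065), PVBL replicate 3 (-0.69, 0.0501), sham replicate 1 (-0.66, 0.0911) or sham replicate 2 (-0.60, 0.0851), median scaling (-0.59, 0.0714) and spike-in scaling (-0.29, 0.774). Among the 19 is the deposited value table (-0.53), where the further probe stood for Stard4. Its rows are those where the groups differ, so a kept call there adds little.

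Soat2 and Soat1 esterify cholesterol, and Soat2 is the enzyme of hepatocytes and intestine. Soat2 read 4.34, 4.24 and 4.27 on the PVBL arrays and 4.65, 4.59 and 4.38 on the sham arrays. The PVBL values were all below the sham values, but sham array 3 was close to them, and the difference of -0.26 ± 0.12 was not called (adjusted p = 0.145, 95% interval -0.55 to 0.03). Soat1 was near background: it was well above it on 2 of 3 PVBL arrays and 1 of 3 sham arrays and was not tested. Unscaled, it gave 26.6, 15.9 and 49.1 units in PVBL and 20.1, 15.0 and 14.9 in sham, so its highest reading was on PVBL array 3. With no filter on dim probes its difference was 0.32 (adjusted p = 0.664). Abca1, the exporter that loads cholesterol onto apolipoprotein A-I, read 3.36, 3.20 and 3.1 against 3.33, 3.23 and 3.23, a difference of -0.05 ± 0.12 (adjusted p = 0.790) with a 95% interval from -0.33 to 0.24. Of the control and transport genes, 4 had arrays that did not overlap with PVBL lower (Insig1, Scap, Stard4 and Soat2) and 0 with PVBL higher, beside 29.1% and 22.3% of all genes.

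**Figure D3:**
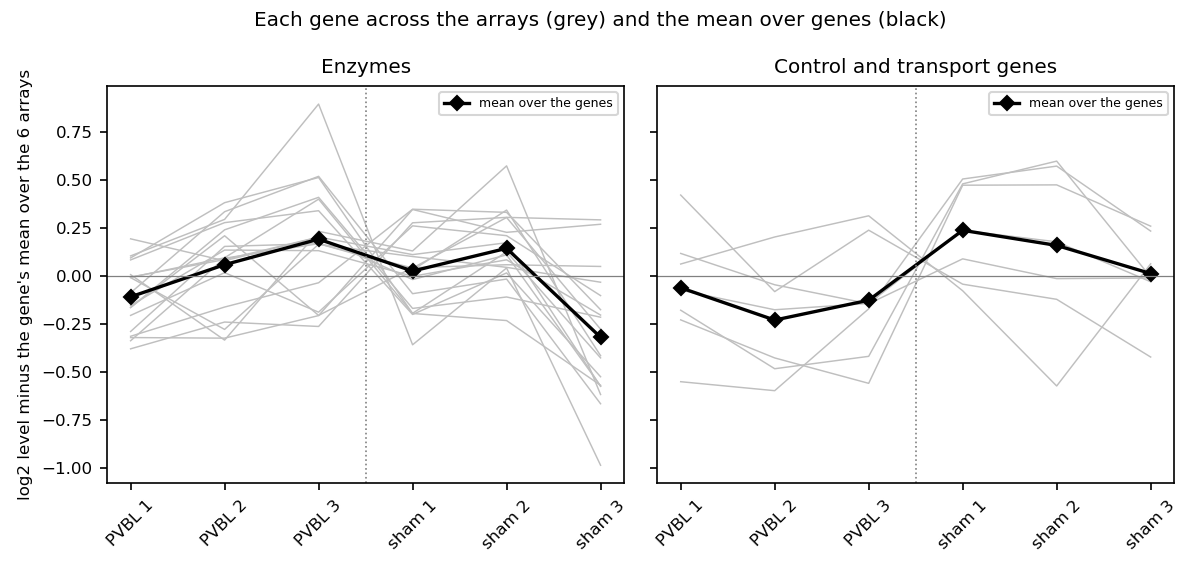
Each tested member across the 6 arrays as its log2 level minus its own mean over the arrays (grey lines), with the mean over the genes in black; enzymes on the left, control and transport genes on the right. The mean of the enzymes is lowest on sham array 3 (-0.32) and, among PVBL arrays, on array 1 (-0.11).

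The enzymes varied together between arrays of the same group. The mean over the enzymes, each centred on its own mean, was -0.11, 0.06 and 0.19 on PVBL arrays 1 to 3 and 0.03, 0.15 and -0.32 on sham arrays 1 to 3. Sham array 3 was thus lower than either other sham array by more than the groups differed. The lowest sham value was on sham array 3 for 15 of 18 enzymes (83.3%), where 39.5% of all genes had theirs there. The lowest PVBL value was on PVBL array 1 for 13 of 18 enzymes (72.2%), against 21.8% of all genes. Among genes with a mean level of at least 4 the shares were 9 of 12 enzymes (75%) against 30.6% of 2493 genes for sham array 3, and 9 of 12 against 19.5% for PVBL array 1. The median SD over the enzymes was 0.21 in PVBL and 0.27 in sham, beside 0.21 and 0.15 over all genes. These counts were chosen after the values were seen and describe these arrays.

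Sham array 3 was also the array with the lowest 75th percentile, 203.5 units, and PVBL array 1 the array with the highest, 407 units; the part of array brightness in these counts was not tested. With other scalings and background correction, 15 to 18 enzymes had their lowest sham value on sham array 3, beside 38.4% to 97% of all genes. With spike-in scaling, where 97% of all genes were lowest on that array, the count for PVBL array 1 became 0, beside 0.914% of all genes. The fatty acid genes below, the related targets of SREBP-1, had the same sham arrays at their ends: 13 of 16 were lowest on sham array 3 and 14 of 16 highest on sham array 2, where 26.7% of all genes were highest, and their median SD in sham was 0.49. Among PVBL arrays they differed from the enzymes, with 6 of 16 lowest on array 1 and 7 of 16 on array 2; that difference was not tested. Leaving out sham replicate 3 and PVBL replicate 1 together was not planned beforehand. In that fit the differences of 4 called members changed little. By limma Cyp51 was 0.66 (adjusted p = 0.063), Acat2 -0.55 (0.0948), Tm7sf2 -0.54 (0.0877) and Insig1 -0.92 (0.0535). None of these 4 was called in that fit of 2 against 2 arrays, while Scap and Stard4 kept their calls. The share of all genes called there was 12.2%. Other values moved more: the enzyme median was -0.01, against 0.05 with all arrays, and Mvd was -0.40, against -0.06. The control and transport median was -0.37, against -0.26.

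**Figure D4:**
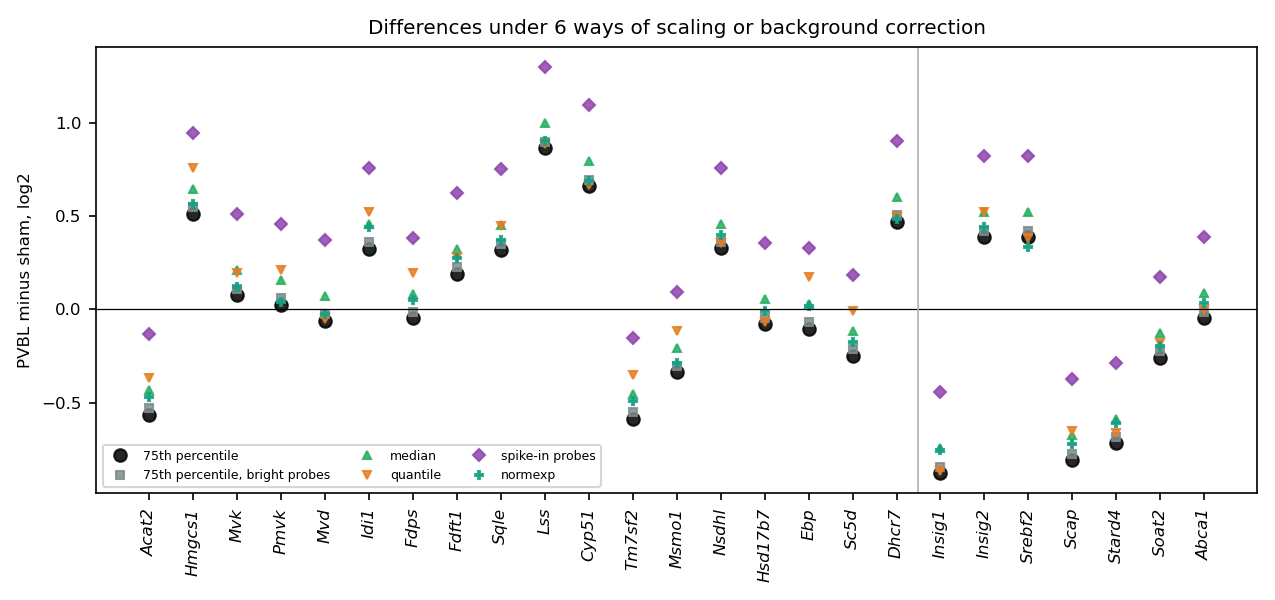
Difference between PVBL and sham for each tested member (log2) under 6 ways of scaling or background correction, enzymes left of the grey line and control and transport genes right of it. The spike-in points lie above the others for every member; Insig1, Scap, Stard4, Acat2 and Tm7sf2 are below 0 and Cyp51 and Lss above 0 under all 6.

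Scaling set the zero of these differences. Against the 75th percentile the median of all genes was -0.10, with median scaling 0.03 and with spike-in probes 0.33, so with spike-in probes the members moved up with the whole array. Relative to those medians, the enzymes stood at 0.48 against 0.33 with spike-in probes, and at 0.05 against -0.10 with the 75th percentile. The control and transport genes stood at 0.17 against 0.33 and at -0.26 against -0.10. Under spike-in scaling 12.1% of all genes were called, and of the members only Lss was. The SE there was 0.42 for each tested member, beside 0.11 to 0.31 with the 75th percentile. A call lost under spike-in scaling thus also reflects that wider SE.

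Genes that process SREBP or degrade proteins of the pathway gave 2 called higher and 0 called lower among 10, with a median difference of 0.23. Mbtps2, the site-2 protease that cuts SREBP within the membrane, rose by 0.59 ± 0.13 (adjusted p = 0.0168). Rnf145, a sterol-responsive ubiquitin ligase, rose by 0.67 ± 0.16 (adjusted p = 0.0213). The share called higher, 20%, stands beside 15.1% of all genes.

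The branch from farnesyl diphosphate to other isoprenoids had 4 genes called higher and 1 called lower among 14, with a median difference of 0.20; the share called, 35.7%, is near the 32.9% of all genes. Pdss1, which builds the tail of ubiquinone, read 0.07, 0.38 and -0.16 on the PVBL arrays and -1.18, -0.88 and -0.87 on the sham arrays, a rise of 1.07 ± 0.18 (adjusted p = 0.005). Srd5a3 and Nus1, both of dolichol synthesis, rose by 0.87 ± 0.11 (adjusted p = 0.00177) and 0.78 ± 0.11 (adjusted p = 0.00245). Zmpste24, the protease that processes prenylated prelamin A, rose by 0.58 ± 0.13 (adjusted p = 0.0148). Icmt, which methylates prenylated proteins and was named after its values were seen, was lower by -0.43 ± 0.13 (adjusted p = 0.041).

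Partners of the sterol steps outside the member list gave 0 called higher and 2 called lower by limma among 8, with a median of -0.40. Ebpl, a relative of Ebp, differed by -0.79 ± 0.19 (adjusted p = 0.0183). Erg28, a scaffold of the C4 demethylation complex, differed by -0.59 ± 0.12 (adjusted p = 0.0121). Called lower were thus 25% of these partners, beside 17.8% of all genes. The median of every list stands beside -0.10 over all genes.

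Among the targets and receptors of LXR, the nuclear receptor of oxysterols, 6 of 10 were called lower and 0 higher, with a median of -0.67. That is 60% called lower, beside 17.8% of all genes. Mylip, the ubiquitin ligase of lipoprotein receptors, fell by 1.41 on the log2 scale (SE 0.28, adjusted p = 0.0102) and Srebf1, which encodes SREBP-1, fell by 1.28 (SE 0.21, adjusted p = 0.00506). Abcg8 and Abcg5, which together form the exporter of sterol into bile, fell by 1.13 (SE 0.14, adjusted p = 0.00172) and 0.69 (SE 0.13, adjusted p = 0.00926). Lpcat3 and Apoe, named after their values were seen, were also called lower. Abca1, a member and a known LXR target, was not among the calls.

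The bile acid list, the route by which liver removes cholesterol, had 6 of 11 genes called lower and 0 higher, with a median of -0.69. The 54.5% called lower stands beside 17.8% of all genes. Cyp8b1, the sterol 12-alpha-hydroxylase, read 0.57, -0.04 and -0.34 on the PVBL arrays and 2.63, 2.37 and 3.22 on the sham arrays, a difference of -2.68 ± 0.29 (adjusted p = 0.00104). Cyp7b1, the oxysterol hydroxylase, differed by -1.76 ± 0.55 (adjusted p = 0.0469). Hsd3b7, an early step shared by the routes, differed by -1.06 ± 0.19 (adjusted p = 0.00687), and Slc27a5, which conjugates bile acids to CoA, by -0.94 ± 0.17 (adjusted p = 0.00808). Cyp27a1 and Akr1d1, named after their values were seen, were also called lower. The list did not move as 1: 2 of the 11 differences were above 0, and neither was called. They were Cyp7a1 (0.24, limma adjusted p = 0.668) and Acox2 (0.18, 0.338), also named after their values were seen.

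The fatty acid genes under SREBP-1 gave 1 higher and 3 lower among 16 (25% called, beside 32.9% of all genes), with a median of -0.19. Acacb, the acetyl-CoA carboxylase of the mitochondrial surface, fell by 1.32 on the log2 scale (SE 0.32, adjusted p = 0.021), Thrsp, a lipogenic regulator, by 1.16 (SE 0.37, adjusted p = 0.0477) and Mlxipl, which encodes ChREBP, by 0.82 (SE 0.11, adjusted p = 0.00264). Fads2, the delta-6 desaturase, rose by 0.72 ± 0.16 (adjusted p = 0.0138). The trafficking list had 1 higher and 1 lower among 14 (14.3% called, beside 32.9% of all genes), with a median of -0.08. Lipa, the lysosomal lipase that frees cholesterol from esters, rose by 0.42 ± 0.12 (adjusted p = 0.0357), and Lcat, the plasma enzyme that esterifies it, differed by -0.65 ± 0.14 (adjusted p = 0.0123).

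Some markers of cell types differed between the groups, and their part in the differences above was not tested. Beside 32.9% of all genes, the share called was 27.3% for hepatocyte, 36.4% for endothelial, 45.5% for stellate and 71.4% for biliary markers. All 11 hepatocyte markers were well above background on every array; 3 were called lower (Ass1 by -0.76, Apoh by -0.73 and Fgb by -0.53) and 0 higher, with a median of -0.40. Their summed scaled level ran from 5458.5 to 6909.5 on the PVBL arrays and from 7885 to 8483.7 on the sham arrays, where 1 is the array's 75th percentile. In this and the sums below the brightest markers weigh most, and a sum does not measure the number of cells. Of 11 endothelial markers 4 were lower, including Clec4g (-1.49), Oit3 (-1.24) and Fcgr2b (-0.89), with sums of 52.8 to 81.3 against 117.8 to 126.2. Of 11 stellate markers 4 were higher, including Col1a1 (2.21), Acta2 (1.75) and Col3a1 (1.46). The 1 called lower was Lrat (-1.23), and 6 of the 11 differences were above 0. Sums were 120.6 to 152.2 against 125.8 to 132.5. Dcn, the brightest of these markers, was not called (-0.30). Lrat and Dcn were named after their values were seen. Of 7 tested biliary markers 4 were higher, including Spp1 (2.46), Krt19 (1.52) and Krt7 (1.44). Krt7 was well above background on only 2 sham arrays. It passed the filter through PVBL alone, where it was higher, so its call is not independent of the filter. The 1 called lower was Cftr (-1.17), named after its values were seen and well above background on 1 PVBL array. Biliary sums were 8.06 to 23.2 against 2.73 to 5.40. Epcam and Muc1 were not tested.

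Of 11 tested macrophage markers 1 was higher, Marco (2.52), and 0 lower (9.09% called, beside 32.9% of all genes). Cd163 was not tested and Cd68 had no named probe. Sums over the tested markers were 119.9, 126.1 and 301.2 on PVBL arrays 1 to 3 and 157.8 to 177.4 on the sham arrays. By these sums PVBL array 3 stood apart from the other PVBL arrays. Without PVBL replicate 3, Cyp51, Acat2, Tm7sf2, Insig1 and Scap kept their calls and Stard4 did not (adjusted p = 0.0501). Of 9 tested lymphocyte markers 2 were lower (22.2% called), Cd3g (-0.70) and Cd8a, which was not well above background on any PVBL array. Klrb1c was not tested. Lymphocyte sums were 40.1 to 75.1 against 64.8 to 84.8. They mostly follow Cd4, the brightest of these markers, which was named after its values were seen and was not called (-0.35, limma adjusted p = 0.406).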

How the data were processed

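Right-lobe liver RNA of 3 PVBL and 3 sham samples was measured on single-colour Agilent arrays; groups and numbers come from the labels' source names. The members and all gene lists were chosen with earlier results of these data known; the lists do not hold every gene of the pathway, and some results are not reported here. The deposited scanner files hold an intensity per spot, corrected for background by Feature Extraction 10.7.3.1 per the file headers (the submitters' processing notes name 9.1). The flags for signal above background and for outlier spots are also those deposited by the authors. The deposited value table holds log2 values; they matched scaled, probe-centred scanner values with r of at least 0.999744, so the level is lost by the centring. Its column medians were -0.18, -0.15 and -0.215 for PVBL and 0.17, 0.15 and 0.18 for sham, its normalization is not given in the sources used here, and its 7850 rows hold 5 members. It served as an alternative.

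From the intensities, log2 of the processed signal was taken, dropping outlier spots and 3671 control spots and averaging repeated spots, and the 75th percentile of the 55681 probes on that array was subtracted. Probes were named through RefSeq accessions (GRCm38.p6 table, used for names and promoter sequences only, since the arrays were annotated on mm9); 26413 (47.4%) had a symbol. Testing needed a signal well above background throughout at least 1 group, and the brightest tested probe stood for its gene. The test was that of limma 3.58.1 (lmFit and eBayes, two-sided; R 4.3.3), adjusted by Benjamini-Hochberg over 13586 genes, threshold 0.05; 17 of these genes lacked a value on an array. The script was tested on simulated data in which 67, 67 and 66 of 13569 genes changed 1.5-fold, 2-fold and 4-fold. Of these, 11.9%, 43.3% and 90.9% were recovered. Far more genes were called in the real data, so these shares need not carry over. A gene that was not called is not thereby shown to be unchanged. Intervals are limma's 95% intervals. The number of arrays limits the precision. Named genes are all members, up to 4 called genes with the largest change in each further pathway list and up to 3 in each marker list; others are marked.

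Alternatives were background correction by normexp (offset 50, on the median spot signal, since the files used here hold no mean signal), other scalings, filters and probe summaries, array weights, trended and robust moderation, a replicate block, and leaving out arrays. The joint omission of sham replicate 3 and PVBL replicate 1 was not planned beforehand. Same-numbered samples correlated at 0.166, -0.063 and 0.185 in their deviations from the group means, and differently numbered ones at -0.2475 to 0.1765. These values do not settle whether the samples are pairs. The labels name no pairs, and the numbers were not taken as pairs.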

Additional observations from a re-analysis of the deposited data

How the results depend on the processing

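With spike-in scaling all 6 called members lost their calls, Cyp51 with a larger difference (1.09, adjusted p = 0.0719), and the 1 enzyme called there was Lss; each of the 6 kept its sign under every alternative that gave it a value. The number of enzymes called higher, 1, became 2 with normexp correction and with trended and robust moderation, and 0 with no filter, under the replicate block, in the deposited table, where Cyp51 has no row, and without sham replicate 3 and PVBL replicate 1. Enzymes called lower, 2, became 0 with quantile normalization, with spike-in scaling and without those 2 arrays, and 4 with array weights. Control and transport genes called lower, 3, became 0 with spike-in scaling, 2 with median scaling, with no filter and without those 2 arrays, and 4 with array weights, where Soat2 was added; those called higher, 0, became 1 with array weights. The replicate block left 2 enzymes and 3 control and transport genes lower. It ended the call of Cyp51 (limma adjusted p = 0.0545) and changed no other call. Whether same-numbered samples are pairs is not settled by the labels. The enzyme median, 0.05, was 0.48 with spike-in scaling and -0.58 in the deposited table, whose rows are those where the groups differ (97.5% called) and which holds 2 enzymes. The control and transport median, -0.26, was -0.13 with median scaling, 0.17 with spike-in scaling and -0.81 in the deposited table. Enzymes lowest among PVBL arrays on array 1, 13, became 0 with spike-in scaling, beside 0.914% of all genes. Soat1 minus Soat2 could be set only without the filter (0.58, exact permutation p = 0.4).

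Leaving out 1 array gave 0 to 1 enzymes higher, 1 to 2 lower, 2 to 3 control and transport genes lower, medians of -0.08 to 0.21 and -0.34 to -0.20, and -1.50 to -1.01 for Insig1 minus Insig2. Signs turned only in members that were not called. With normexp Fdps was 0.053, Ebp 0.020 and Abca1 0.036. With median scaling Mvd was 0.072, Fdps 0.083, Hsd17b7 0.053, Ebp 0.028 and Abca1 0.086. With quantile normalization Fdps was 0.20 and Ebp 0.17. With spike-in scaling Mvd was 0.37, Fdps 0.38, Msmo1 0.094, Hsd17b7 0.35, Ebp 0.33, Sc5d 0.18, Soat2 0.17 and Abca1 0.39. With the mean of its probes Hsd17b7 was 0.067. With array weights Mvk was -0.12, Pmvk -0.32, Fdft1 -0.026 and Abca1 0.057. Without sham replicate 3 and PVBL replicate 1 Pmvk was -0.03, and Mvd, its sign kept, was -0.40. Without 1 array, Fdps ran from -0.20 to 0.11, Pmvk from -0.18 to 0.20, Mvd from -0.38 to 0.21, Hsd17b7 from -0.18 to 0.040, Abca1 from -0.12 to 0.014, Mvk from -0.0037 to 0.17 and Fdft1 from -0.048 to 0.33. Causes of these changes were not tested. Over all genes, 2053 higher and 2422 lower became 2639 and 1559 with median scaling, 1476 and 166 with spike-in scaling, 1469 and 1582 with no filter, 3328 and 4491 with array weights, and 1327 and 1077 without sham replicate 1. Soat1, near background, had no tested value.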
